A study of Macaca nemestrina with 58 samples.

Results

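Collagens, matrix proteoglycans and the glycoproteins deposited with them were followed in vaginal pinch biopsies of pig-tailed macaques (Macaca nemestrina), before and during hormonal contraception. The genes were those whose only symbol in the array annotation reads COL, a number, A and a number, together with 18 named matrix genes: COL1A1, COL1A2, COL3A1, COL12A1, DCN, LUM, OGN, ASPN, BGN, FMOD, VCAN, FN1, TNC, POSTN, FBN1, ELN, LOX and SPARC. A probe set is the group of short probes that the array assigns to 1 transcript, and each gene was read on its brightest probe set. In this way 47 genes were found, and 43 of them passed a brightness filter, out of 11199 named genes and 31624 probe sets that passed it. The 43 comprised 31 of 35 collagen genes and 12 other matrix genes, and they held 16 of the 18 named genes. COL4A4, COL9A2, COL11A1 and COL21A1 fell under the filter, and POSTN, SPARC, COL4A1, COL4A2, COL5A1, COL8A1, COL17A1 and COL22A1 were not analysed here.

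The DMPA arm (depot medroxyprogesterone acetate, an injected progestin) had 9 animals, given doses labelled 0.5, 1.5 or 2.5 with no unit, and biopsied at times labelled 1D4 (8 samples) and 2D2 (9 samples). The LNG arm (levonorgestrel, here the label of the combined oral contraceptive) had 6 animals on a High or Low dose, biopsied at times labelled 5th and 7th (6 samples each), of which 1 sample at 5th and 4 at 7th carried an unexplained label A-. The same 15 animals gave 28 baseline samples without contraceptive, of which 15 were follicular (10 early and 5 late) and 13 luteal (4 early and 9 late), and 13 animals gave 2 of them. The series' design text speaks of 5 weeks after the first oral dose and 2 weeks after the second injection, without tying them to these labels. There were no untreated animals at the later times, so time in the study and treatment cannot be told apart. All RNA was hybridized to an array designed for rhesus macaque.

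Fibrillar collagens such as types I and III form the tensile fibrils of the connective tissue under the stratified squamous epithelium of the vagina. Small leucine-rich proteoglycans (decorin, lumican, biglycan, fibromodulin, asporin, osteoglycin) bind those fibrils and bear on their assembly, fibril-associated collagens coat them, and type IV collagen builds the sheet on which the epithelium rests. Fibronectin, tenascin C and versican belong to a more changeable matrix that fibroblasts lay down during growth and repair.

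Values are log2 intensities as deposited, so a difference of 1 is a doubling, and levels were never compared between genes. Array medians lay between 6.07 and 6.25. Each change below was estimated within animals by limma, with Benjamini-Hochberg adjustment over all 31624 probe sets, and a gene was called when its adjusted p was under 0.05. Biopsies differed in make-up: the mean of 8 of 14 fibroblast markers that are no members ranged from 6.76 to 10.41 among baseline samples, and that of 15 of 17 squamous markers from 9.02 to 13.08. In bulk tissue, fewer cells of a type and less RNA per cell cannot be told apart. The labels name the animal for each sample, and precision rests on how many arrays each group has.

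The stromal members varied widely before any contraceptive was given. Over the 28 baseline samples, 16 of the 43 genes spanned 4 or more log2 units between the lowest and the highest sample, whereas 4.36% of all probe sets did so. The median range was 2.97 over the members and 1.42 over all probe sets. COL14A1, a fibril-associated collagen, ran from 4.30 to 12.34, and the proteoglycan osteoglycin (OGN) ran from 3.99 to 11.38. COL1A1, a chain of type I collagen, ran from 7.88 to 13.76. COL5A2 ran from 10.94 to 11.74 on its brightest probe set, and elastin (ELN) from 7.48 to 8.31, which were narrow spans. COL5A2 was read unevenly by the array: its brightest probe set changed by -0.03 at 1D4, while its 2 dimmest probe sets changed by 1.01 and 1.09.

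Single biopsies stood apart across many genes at the same time. Of the 16 named genes, 9 had their lowest early follicular value in the biopsy of animal BB4870, and 14 had their lowest late luteal value in the other baseline biopsy of that animal. Its LNG biopsy at 5th, the only one labelled A- at that time, was the lowest of 6 for 15 of the 16 genes, whereas its biopsy at 7th was the highest of 6 for 11 of them. The early luteal biopsy of BB405 was the lowest of 4 for 14 genes, and the DMPA 1D4 biopsy of that animal was the lowest of 8 for 13 genes. At the other end, animal PPi2 gave the highest value of 9 of the 16 genes among early follicular, 10 among late luteal and 10 among 1D4 samples.

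**Figure D1:**
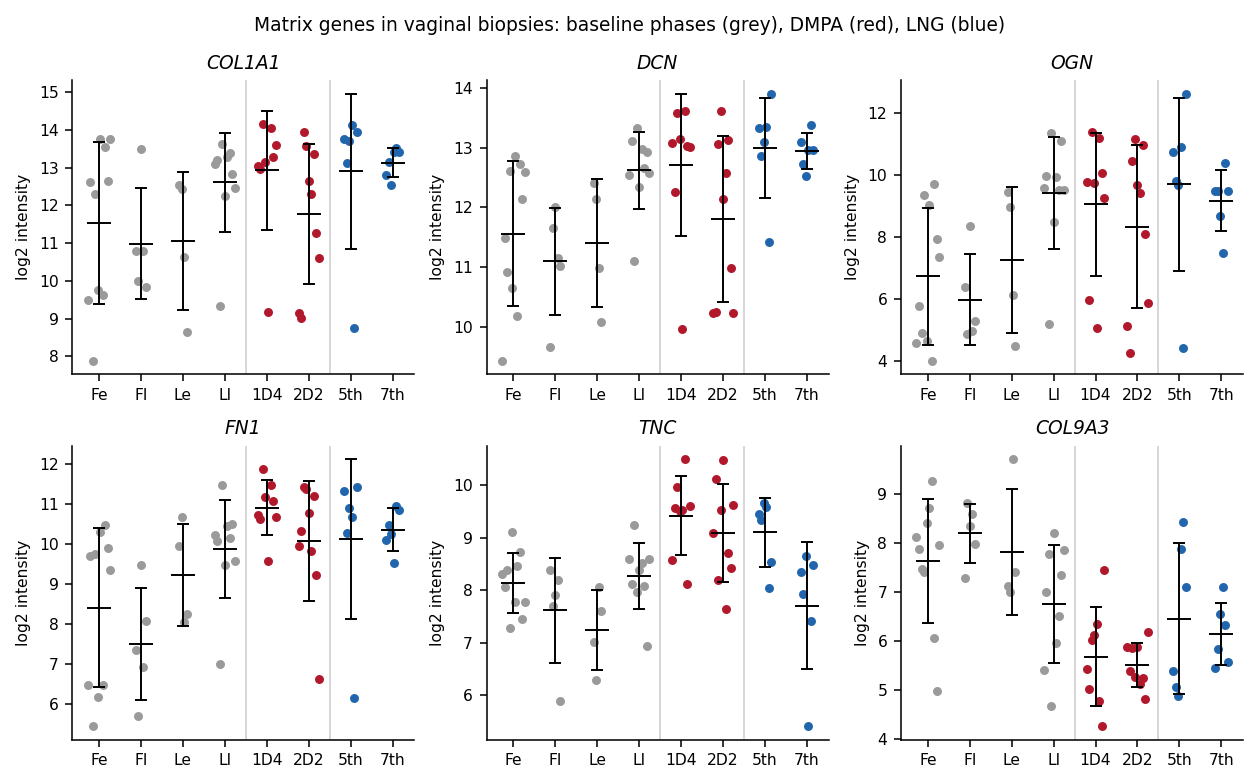
Log2 intensity of 6 matrix genes in every sample, by baseline phase (Fe and Fl for the early and late follicular, Le and Ll for the early and late luteal phase), DMPA time and LNG time. Points are samples and black bars the mean and SD. TNC sat between 8.12 and 10.49 at 1D4, COL9A3 between 4.82 and 6.19 at 2D2, and COL1A1 had 1 low sample at 1D4 (9.17) and 1 at 5th (8.75).

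Across the cycle, fibronectin was the only member called. FN1, the adhesive glycoprotein of provisional matrix, ranged from 5.45 to 10.48 with a median of 9.53 in the 10 early follicular samples. It was 7.35, 5.69, 9.47, 6.94 and 8.09 in the late follicular samples and 9.94, 10.68, 8.05 and 8.26 in the early luteal samples. The 9 late luteal samples ran from 6.99 to 11.48 with a median of 10.17. The phases overlapped, and 6 of the 10 early follicular samples lay above 9. The luteal phases exceeded the follicular phases by 1.65 ± 0.40 (SE; 3.14-fold; limma, adjusted p = 0.0485), and FN1 was higher in the luteal biopsy of 11 of 12 animals that gave 1 of each. With 1 member of 43 called (2.33%), the share was close to the 2.10% of all probe sets called higher, and none was called lower, against 0.939%. Leaving out 1 animal ended the call for 11 of 13 animals, with adjusted p between 0.0522 and 0.130, and the adjusted p was 0.967 with the fibroblast marker mean as a covariate. The other FN1 probe set over the filter was at 0.86 and was not called (limma, adjusted p = 0.111). Over the mean of its probe sets FN1 was at 1.25 (adjusted p = 0.0649).

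Every other member missed the threshold in this comparison. Osteoglycin (OGN) was higher by 2.29 ± 0.75 (adjusted p = 0.0951) and in 11 of 12 animals, and COL14A1 was higher by 2.26 ± 0.78 (adjusted p = 0.108) and in 10 of 12. COL6A2, a chain of the beaded-filament collagen VI, was higher by 0.60 ± 0.16 (adjusted p = 0.0625), and COL18A1, a basement membrane collagen, by 0.48 ± 0.15 (adjusted p = 0.0860). Values near 0 were seen elsewhere: COL3A1 was at 0.21 ± 0.36, COL12A1 at 0.01 ± 0.46 and biglycan (BGN) at 0.04 ± 0.22. Versican (VCAN), the large chondroitin sulfate proteoglycan, was at -0.81 ± 0.41 (adjusted p = 0.235). The median over the 43 members was 0.06, and that over all probe sets was -0.01.

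The early follicular and late luteal phases were compared directly in 6 animals. No member was called, while 0.0949% of all probe sets were called higher and 0.0569% lower; by limma 18 of the 43 members, against 7012 of 31624 probe sets, had an unadjusted p under 0.05. FN1 was higher in the late luteal biopsy of 6 of 6 animals, by 0.53 to 3.74, with a fitted difference of 1.84 ± 0.46 (adjusted p = 0.0775). OGN was higher by 0.31 to 5.01 in the same 6 pairs (fitted 2.66 ± 0.85, adjusted p = 0.114), COL14A1 by 0.97 to 5.40 (fitted 2.63 ± 0.89, adjusted p = 0.124). Decorin (DCN), the commonest of the small proteoglycans around type I fibrils, was higher in 6 of 6 pairs as well (fitted 1.02 ± 0.43, adjusted p = 0.186). The 16 named genes did not move as a block in every animal: the mean difference was 2.38 in BB967 and 1.68 in BB0499, and it was -0.04 in BB0540 and 0.24 in PPi2.

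**Figure D2:**
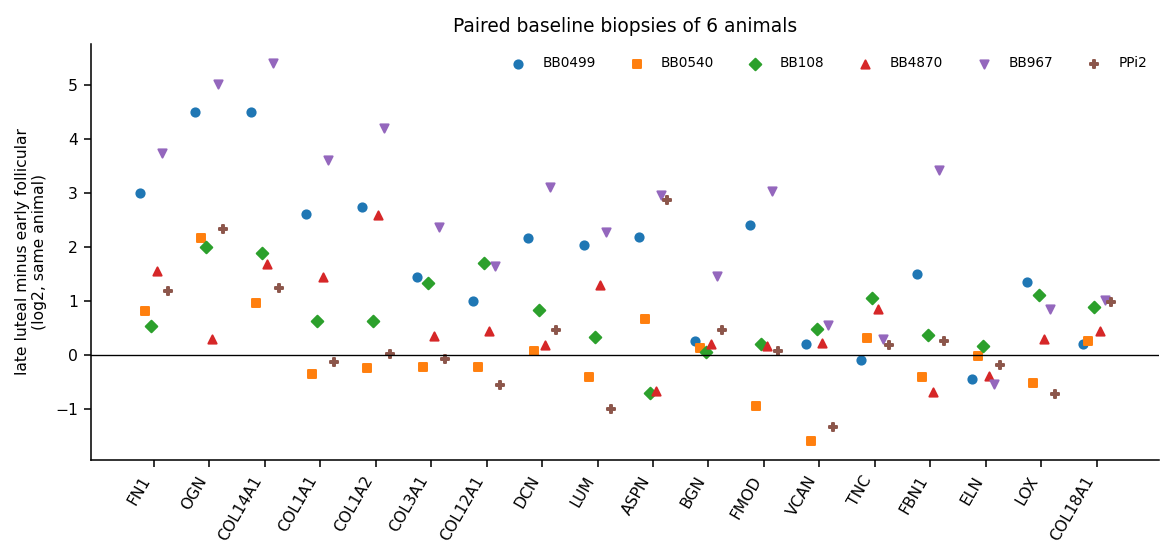
Late luteal minus early follicular log2 intensity for 18 members in the 6 animals with both biopsies, with 1 symbol per animal. All 6 points lie above 0 for FN1, OGN, COL14A1, DCN, BGN and COL18A1, with BB967 highest for each of these, while VCAN has points on both sides of 0.

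The remaining phase steps rest on 1 shared animal (late against early follicular, and early luteal against late follicular) or on none (late against early luteal), and otherwise on pairs linked through the model. Neither members nor other probe sets were called in any of the 3 steps (0% of 31624 each); by limma, 6, 3 and 20 of the 43 members had an unadjusted p under 0.05, against 2262, 2852 and 2627 of all probe sets. Tenascin C (TNC), a glycoprotein that rises in remodelling tissue, led the last of them: it was 6.93 to 9.24 with a median of 8.38 in the late luteal samples, against 7.02, 6.28, 8.06 and 7.60 in the early luteal samples. The fitted difference was 1.64 ± 0.30, with an adjusted p of 0.501. COL6A2 differed by 1.20 ± 0.30 and LOX, which cross-links collagen and elastin, by 1.78 ± 0.49 (adjusted p = 0.540 for each).

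At the 1D4 time of DMPA, tenascin C, fibronectin, versican and 5 collagens rose on their brightest probe set, while 5 other collagens fell. Of the 43 members, 8 (18.6%) were higher than in the animals' own baseline, against 11.3% of all probe sets, and 5 (11.6%) were lower, against 11.9%. The median change was 0.62 over the members and 0.03 over all probe sets, and 30 members had a positive change. Those that rose were TNC, FN1, VCAN, COL24A1, COL12A1, COL16A1, COL4A5 and COL18A1, and those that fell were COL9A3, COL9A1, COL4A3, COL26A1 and COL11A2. The other probe set of COL18A1 was called lower, so the direction of that gene is not settled.

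Tenascin C had the smallest p of the members. TNC ran from 8.12 to 10.49 with a median of 9.54 in the 8 samples at 1D4, and from 5.90 to 9.24 with a median of 8.07 in the 28 baseline samples. The samples at 8.12 and 8.57 lay inside the baseline range, and the other 6 lay above it. TNC rose by 1.50 ± 0.32 (2.82-fold; adjusted p = 0.0040), in 8 of 8 animals, by 0.98 in BB981 to 2.57 in BB0540. Fibronectin ran from 9.58 to 11.89 with a median of 10.91 at 1D4, against 5.45 to 11.48 with a median of 9.54 at baseline. FN1 rose by 1.83 ± 0.58 (3.55-fold; adjusted p = 0.0233), again in 8 of 8 animals.

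Versican rose by 1.17 ± 0.41 (VCAN; 2.24-fold; adjusted p = 0.0355) in 8 of 8 animals, with 6.62 to 9.50 and a median of 8.15 at 1D4, against 4.38 to 9.97 and a median of 7.02 at baseline. It was the only one of 7 proteoglycans called. Lumican (LUM, 1.26 ± 0.56, adjusted p = 0.0911), biglycan (BGN, 0.62 ± 0.29, adjusted p = 0.113), decorin (DCN, 0.80 ± 0.42, adjusted p = 0.153) and osteoglycin (OGN, 1.30 ± 0.88, adjusted p = 0.273) had positive changes that did not pass.

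Among the collagens, the main fibril chains did not pass. COL1A1 ran from 9.17 to 14.15 with a median of 13.21 at 1D4, against 7.88 to 13.76 with a median of 12.45 at baseline (change 1.07 ± 0.60, adjusted p = 0.185). COL1A2 was at 1.17 ± 0.63 (adjusted p = 0.167) and COL3A1 at 1.06 ± 0.46 (adjusted p = 0.0837). Each of the 3 was higher in 7 of 8 animals, and BB405 was the animal that went the other way, with COL1A1 down by 1.91 on the log2 scale. The minor fibrillar collagen COL24A1 rose by 1.84 ± 0.62 (3.57-fold; adjusted p = 0.0309). The fibril-associated COL12A1 rose by 1.18 ± 0.38 (2.26-fold; adjusted p = 0.0264) and COL16A1 by 0.64 ± 0.23 (adjusted p = 0.0448). In the basement membrane, COL4A5 rose by 0.57 ± 0.18 (adjusted p = 0.0210) and COL18A1 by 0.53 ± 0.19 (adjusted p = 0.0402). The other COL4A5 probe set over the filter was at 0.33 and was not called (limma, adjusted p = 0.148). The 2 probe sets of COL18A1 went in opposite directions. Its dimmer one was called lower, at -0.57 at 1D4 (limma, adjusted p = 0.0050) and at -0.50 at 2D2 (adjusted p = 0.0033). Over the mean of its probe sets, COL18A1 was at -0.02 at 1D4, so its direction is not settled.

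The lower calls were led by a single gene. COL9A3, a chain of type IX collagen best known from cartilage, ran from 4.27 to 7.45 with a median of 5.73 at 1D4, against 4.69 to 9.71 with a median of 7.62 at baseline. It fell by 1.93 ± 0.43 on the log2 scale (adjusted p = 0.0047), in 8 of 8 animals. The other 4 members fell by 0.28 to 0.44 (COL11A2 by 0.28, COL26A1 by 0.32, COL4A3 by 0.32, COL9A1 by 0.44). These 5 genes, and COL24A1 among those that rose, did not pass a brightness filter at the 60th percentile, which 27 members passed. Squamous markers fell too, 12 of 15 at 1D4 and 13 of 15 at 2D2. Their mean ranged from 7.75 to 12.76 at 1D4 and from 7.41 to 11.93 at 2D2, against 9.02 to 13.08 at baseline, and their part in the change of COL9A3 was not tested.

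The count at 1D4 moved with single animals and with the tissue markers. Without BB0499 it was 3, without BB981 or PHQ1 it was 4, and without BB405 it was 14. Calls over all 31624 probe sets were 3093 without BB0499, 3314 without BB981 and 3091 without PHQ1. With every animal they were 3559 higher and 3775 lower, so the fall was not particular to the members. With the fibroblast or the smooth muscle marker mean as a covariate, TNC (1.37 and 1.26) and COL9A3 (-1.48 and -1.62) were the only members called. Over all probe sets 755 and 986 were called. From the animals' own baselines, the fibroblast mean changed by 0.82 ± 0.81 (SD, n = 8; higher in 6 of 8 animals) and the mean of 7 of 10 smooth muscle markers by 1.42 ± 2.22. Columnar epithelium markers were higher in 8 of 8 animals at 1D4 (0.94 ± 0.42, 4 of 7 called) and in 9 of 9 at 2D2 (0.92 ± 0.53, 5 of 7 called). Endothelial markers were higher in 7 of 8 animals at 1D4 (0.64 ± 0.55, 2 of 11 called). The part of these 2 lists was not tested. The difference between 3′ and 5′ GAPDH probe sets, a sign of RNA quality, changed by 0.30 ± 0.43. With it as a covariate TNC, COL9A3 and COL4A3 were called.

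At the 2D2 time, fewer members were called: TNC and COL4A5 rose, and COL9A3, COL26A1, COL13A1 and COL2A1 fell. Of the 43 members, 2 (4.65%) were higher, against 16.0% of all probe sets, and 4 (9.30%) were lower, against 12.1%. The median change was -0.16 over the members and 0.04 over all probe sets, with 13 members positive. TNC ran from 7.65 to 10.48 with a median of 9.08 at 2D2, against 5.90 to 9.24 with a median of 8.07 at baseline. It rose by 1.21 ± 0.30 (2.32-fold; adjusted p = 0.0037) in 8 of 9 animals. COL4A5, a chain of type IV collagen, ran from 6.76 to 8.98 with a median of 8.79 at 2D2, against 6.97 to 8.53 with a median of 7.78 at baseline. It rose by 0.65 ± 0.17 (1.57-fold, limma, adjusted p = 0.0047) in 7 of 9 animals. On its other probe set over the filter, COL4A5 was at 0.07 (adjusted p = 0.763), so the rise was seen on 1 probe set only.

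COL9A3 fell by 1.92 ± 0.40 on the log2 scale (adjusted p = 9.97e-04) in 9 of 9 animals, with 4.82 to 6.19 and a median of 5.39 at 2D2, against 4.69 to 9.71 and a median of 7.62 at baseline. COL26A1 fell by 0.29, COL2A1 by 0.33 and the transmembrane collagen COL13A1 by 0.33 on the same scale. With the brightness filter at the 60th percentile, 2 members were called higher at 2D2 and 0 lower, so none of these falls was called there. Type I collagen was spread widely: COL1A1 was 9.01 to 13.94 with a median of 12.29 at 2D2, a change of -0.20 ± 0.57 and higher in 3 of 9 animals. FN1 was at 0.93 ± 0.55 (adjusted p = 0.202), VCAN at -0.29 ± 0.38 and FMOD, the fibril-binding proteoglycan fibromodulin, at -0.80 ± 0.54 (adjusted p = 0.269). With the GAPDH difference as a covariate, 0 members and 0 of all probe sets were called, and this difference had changed by 0.74 ± 0.57 (SD, n = 9). With the fibroblast marker mean as a covariate, 13 of 43 members were called, beside 9243 of 31624 probe sets, which is a like share. Of the 13, 11 were lower, among them BGN (-0.60), COL15A1 (-0.60), FMOD (-1.07) and the 3 chains of collagen VI (COL6A1 at -0.65, COL6A2 at -0.26 and COL6A3 at -0.70). The 9243 probe sets were not split by direction, so whether this fall is particular to the members cannot be told.

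**Figure D3:**
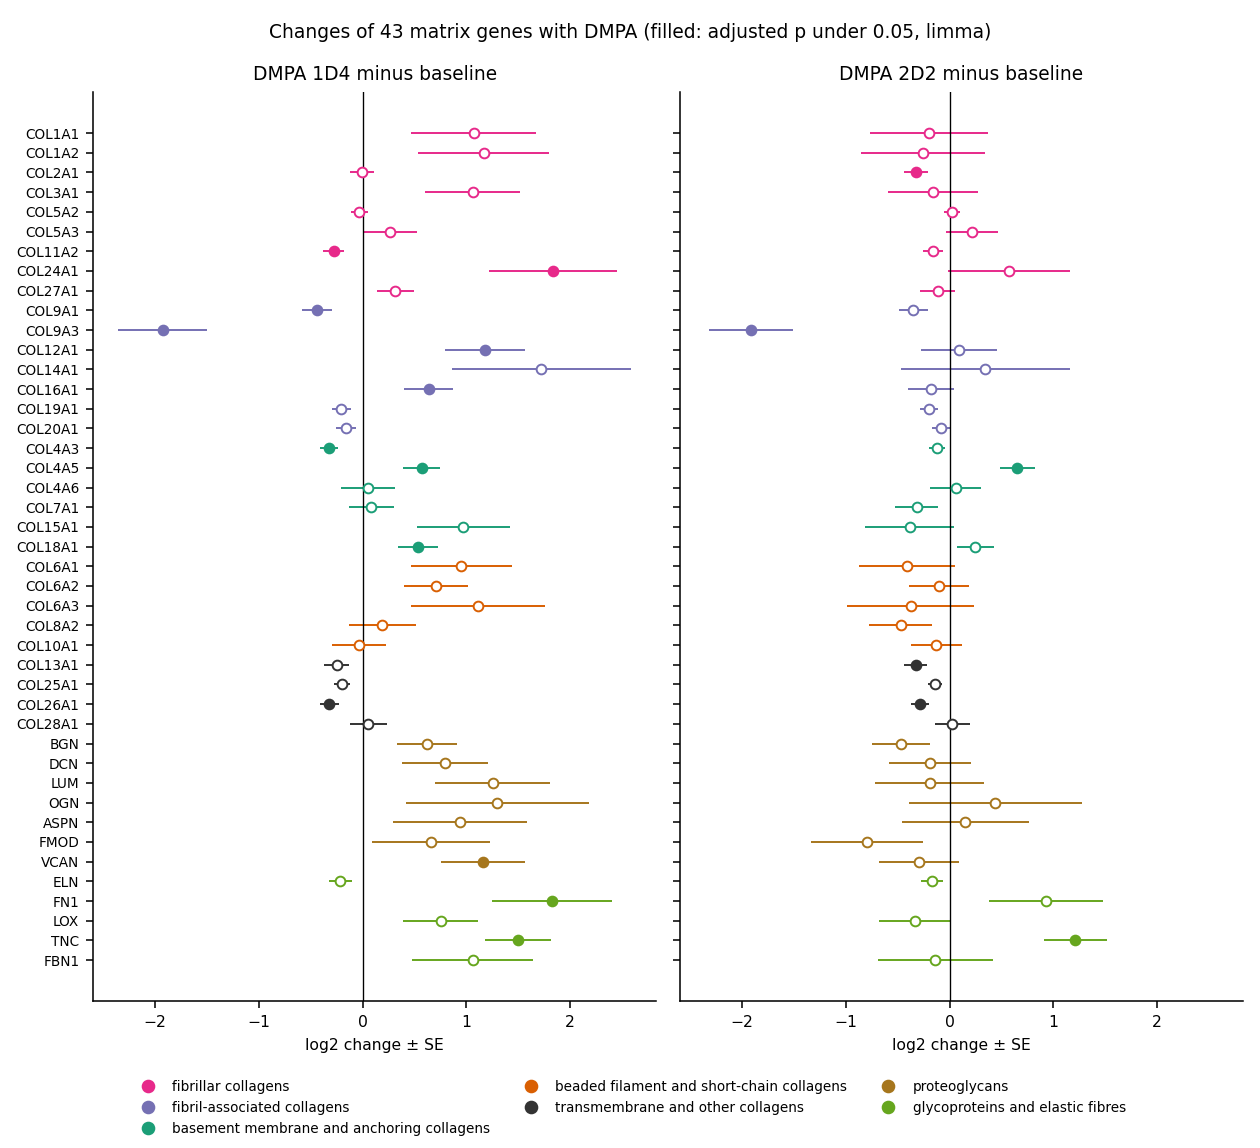
Log2 change from baseline (± SE) of the 43 members at DMPA 1D4 and 2D2, coloured by role, with filled points for adjusted p under 0.05. At 1D4 most proteoglycans and fibrillar collagens lie right of 0, with TNC at 1.50 and FN1 at 1.83, and at 2D2 they lie on both sides of 0 while TNC is at 1.21 and COL9A3 at -1.92.

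The step between the DMPA times was tested directly in 8 animals. The changes at 1D4 and 2D2 share their baseline samples. No member and no other probe set was called for 2D2 minus 1D4 (0% of 31624), and by limma 16 of 43 members, against 1655 of 31624 probe sets, had an unadjusted p under 0.05. The members' median was -0.66, and that of the 16 named genes was -1.09, against 0.02 over all probe sets. The smallest p belonged to BGN (-1.09 ± 0.33), VCAN (-1.46 ± 0.46) and COL16A1 (-0.81 ± 0.26), each with an adjusted p of 0.827. TNC was at -0.28 ± 0.36, COL4A5 at 0.08 ± 0.20 and COL9A3 at 0.01 ± 0.48.

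Animals went in opposite directions between these times. The mean of the 16 named genes was lower at 2D2 than at 1D4 in 6 of 8 animals, by 1.03 to 2.60, and in each of these at least 14 of the 16 genes were lower. It was higher in BB0499 (by 0.68) and BB405 (by 1.80), where 15 of the 16 genes were higher. Against own baseline, that mean stood at 0.97 ± 0.94 at 1D4 (SD, n = 8), higher in 7 of 8 animals, and at -0.07 ± 1.24 at 2D2 (SD, n = 9), higher in 3 of 9. For COL1A1 and TNC the doses overlapped at 2D2. COL1A1 at 2D2 was 13.94, 12.29 and 10.61 at dose 0.5, 9.01, 12.65 and 11.28 at dose 1.5, and 9.16, 13.57 and 13.36 at dose 2.5. TNC at 2D2 was 8.19, 7.65 and 9.62 at dose 0.5, 10.11, 10.48 and 8.42 at dose 1.5, and 9.08, 9.52 and 8.70 at dose 2.5. No dose stood apart for either gene.

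In the LNG arm no member was called at either time, while most members had a positive change. At 5th no probe set was called in all (0% of 31624), and by limma 23 of 43 members, against 6828 of 31624 probe sets, had an unadjusted p under 0.05. The members' median change was 0.70 (all probe sets -0.02), and 35 were positive. COL12A1, the fibril-associated collagen XII, came nearest to the threshold, with 10.67, 10.81 and 7.49 on the High dose and 10.33, 9.96 and 10.93 on the Low dose. Its baseline samples ran from 5.93 to 10.53 with a median of 8.66, and the change was 1.85 ± 0.45 (adjusted p = 0.0544). Next came COL16A1 (0.95 ± 0.27, adjusted p = 0.0617) and COL5A3, a chain of type V collagen (1.06 ± 0.31, adjusted p = 0.0624). Asporin (ASPN) was at 2.46 ± 0.75, DCN at 1.56 ± 0.49 and COL1A1 at 1.56 ± 0.71 (adjusted p = 0.187).

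The LNG count at 5th moved with a single biopsy, and with other settings too. With that biopsy kept, 15 members were called with array weights (1708 of 31624 probe sets). With baseline phases as separate groups 11 were (1808 of 31624). The A- sample of BB4870 had COL1A1 at 8.75 and FN1 at 6.14, whereas the other 5 samples had COL1A1 between 13.11 and 14.13 and FN1 between 10.27 and 11.43. Without that sample, 20 of 43 members were called higher and none lower, beside 4117 of 31624 probe sets called in either direction. It was left out after the values were seen, and it was the lowest of 6 for 15 of the 16 named genes. Larger changes of these genes were therefore bound to follow, and the 20 calls are no test of them. COL12A1 was then at 2.39 ± 0.44, ASPN at 3.21 ± 0.77, DCN at 1.86 ± 0.52 and TNC at 1.35 ± 0.39. At the other end, the 5th biopsy of BB4800 was kept, and 12 members had their highest value of all samples there. Without all samples of BB4870, 15 members and 3186 of 31624 probe sets were called. Across all 6 animals, the smooth muscle marker mean changed by 2.32 ± 1.93 (SD) and the fibroblast mean by 1.36 ± 0.81, each higher in 5 of 6 animals (all samples included), and their part in the 20 calls was not tested.

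At 7th, 2 probe sets (0.00632%) were called and neither belongs to a member, with 24 of 43 members and 7487 of 31624 probe sets at an unadjusted p under 0.05 by limma. The spread differed by gene: COL1A1 was 12.79, 13.40 and 13.50 on the High dose and 13.13, 12.55 and 13.40 on the Low dose. VCAN ran from 6.70 to 10.03 and OGN from 7.48 to 10.38. The change of COL1A1 was 1.79 ± 0.71 (adjusted p = 0.124), higher in 6 of 6 animals. The fibrillin FBN1, which builds microfibrils, was at 2.27 ± 0.68 (adjusted p = 0.0679), COL16A1 at 0.87 ± 0.27 (adjusted p = 0.0760) and DCN at 1.51 ± 0.49 (adjusted p = 0.0801). The mean of the 16 named genes was above own baseline in 6 of 6 animals, by 0.59 in BB173 to 3.20 in BB4870. Fibroblast markers (1.36 ± 1.00, SD) and endothelial markers (0.86 ± 0.63) were also higher in 6 of 6 animals at 7th, and their part was not tested. The squamous marker mean changed by -2.52 ± 2.38 at 5th (higher in 2 of 6 animals) and by -2.34 ± 2.06 at 7th (higher in 1 of 6). Its part was not tested either. The GAPDH difference changed by 0.40 ± 0.46 at 5th (higher in 5 of 6) and by 0.46 ± 0.32 at 7th (6 of 6).

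**Figure D4:**
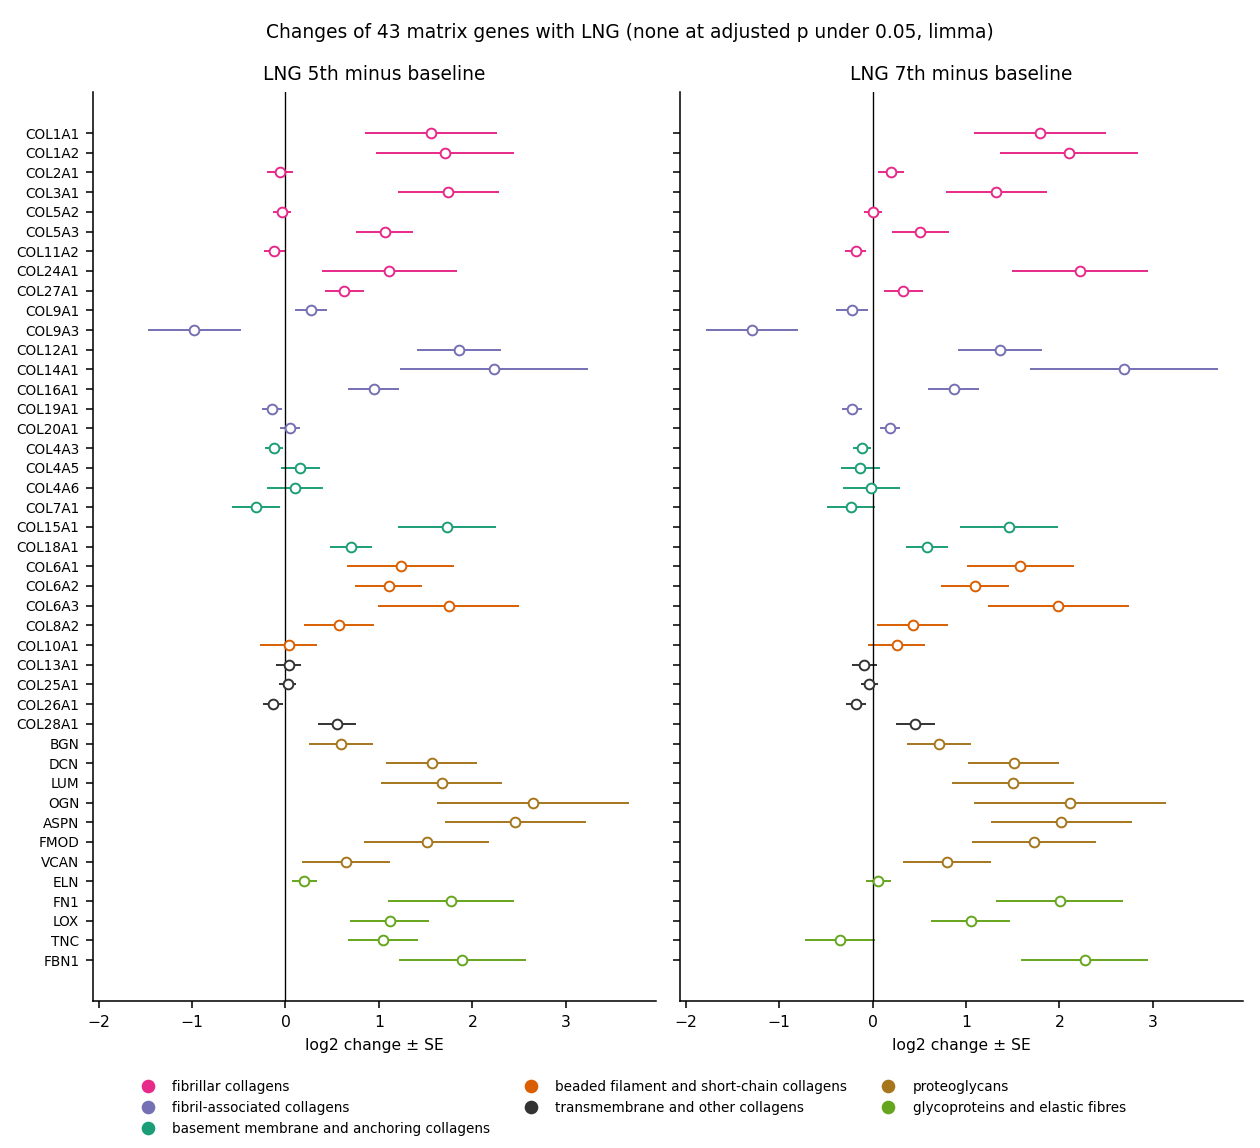
Log2 change from baseline (± SE) of the 43 members at LNG 5th and 7th, coloured by role as in the plot of DMPA changes, with no point past adjusted p 0.05. All 7 proteoglycans lie right of 0 at both times, the fibrillar collagens do so except COL11A2, COL2A1 and COL5A2 at 5th and COL11A2 at 7th, and TNC is at 1.04 at 5th and at -0.35 at 7th.

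Tenascin C differed most between the LNG times. TNC was 8.35, 5.41 and 7.42 on the High dose and 7.93, 8.64 and 8.47 on the Low dose at 7th, against 9.45, 9.58 and 8.03 on the High dose and 9.33, 9.66 and 8.53 on the Low dose at 5th. It was lower at 7th in 6 of 6 animals, by 0.06 in BB4800 to 4.17 in BB269, and the 2 sets of samples overlapped. The fitted difference was -1.39 ± 0.42, with an unadjusted p of 0.0020 and an adjusted p of 0.9999. No member and no other probe set was called between these times (0% of 31624), with 2 of 43 members, TNC and COL9A1, and 946 of 31624 probe sets at an unadjusted p under 0.05 by limma. The mean of the 16 genes was lower at 7th in 5 animals, by 0.21 to 1.22, and higher by 3.39 in BB4870.

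**Figure D5:**
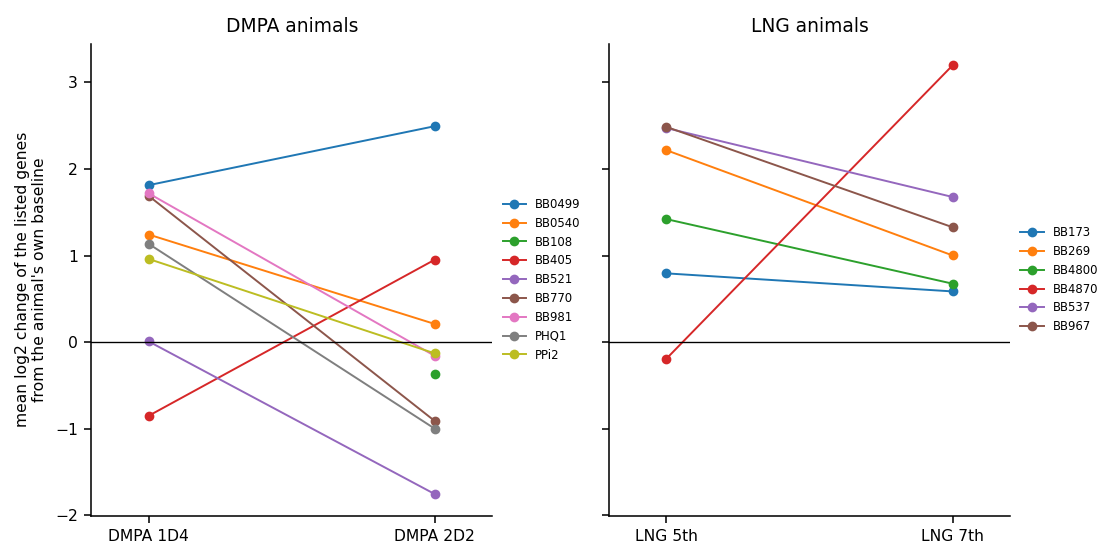
Mean log2 change of the 16 named genes from each animal's own baseline at the 2 times of each arm, with a line per animal. Of 8 DMPA animals with both times, 6 lie lower at 2D2, with BB0499 and BB405 higher, and of 6 LNG animals BB4870 alone lies higher at 7th.

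The arms were compared through the difference of their mean changes from baseline. No member and no other probe set was called (0% of 31624), and by limma 14 of 43 members, against 2029 of 31624 probe sets, had an unadjusted p under 0.05. The smallest p belonged to COL4A5 (DMPA minus LNG 0.60 ± 0.22), TNC (1.01 ± 0.40) and FMOD (-1.69 ± 0.71), each with an adjusted p of 0.769. The other COL4A5 probe set was at 0.16. An effect past the threshold with DMPA and not with LNG was therefore not shown to differ between the arms.

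Genes that build or modify this matrix were counted from separate lists, chosen with earlier results of these samples known, and their counts stand beside the 11.3% of all probe sets called higher and 11.9% lower at 1D4, and 16.0% and 12.1% at 2D2. At 1D4, 10 of 25 measured genes of collagen biosynthesis and cross-linking rose and 2 fell (median 0.50), among them PLOD3, a lysyl hydroxylase (0.68 ± 0.16, adjusted p = 0.0061), and LOXL1, a lysyl oxidase relative (0.65 ± 0.17, adjusted p = 0.0088). Of 8 laminins and nidogens 3 rose and 1 fell at 1D4, with LAMB2 at 0.87 ± 0.22 (adjusted p = 0.0071), and of 11 other matrix proteoglycans 2 rose and 1 fell, including perlecan (HSPG2, 0.78 ± 0.24, adjusted p = 0.0208). Of 9 other elastic fibre genes 2 rose, of 13 matricellular glycoproteins 1 rose (THBS3, 0.75 ± 0.18), and of 10 TGF-beta genes none was called. At 2D2 the biosynthesis list had 2 higher and 2 lower (median 0.04), with PLOD3 at 0.48 ± 0.16 (adjusted p = 0.0208) and P4HB, the beta subunit of prolyl hydroxylase, at -0.49 ± 0.12 (adjusted p = 0.0038). The matricellular list had 2 lower at that time, THBS1 (-1.05 ± 0.23, adjusted p = 0.0015) and CCN5 (-1.08 ± 0.37, adjusted p = 0.0276).

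In the luteal phases, the matricellular glycoprotein THBS2 rose by 3.01 ± 0.47 relative to the follicular phases (adjusted p = 0.0224), as did the activin subunit INHBA by 1.81 ± 0.30 (adjusted p = 0.0230). The procollagen enhancer PCOLCE2 rose by 2.12 ± 0.45 (adjusted p = 0.0373) and the elastic fibre gene FBLN5 by 2.01 ± 0.47 (adjusted p = 0.0444). The fibroblast marker DPT was higher by 2.44 ± 0.46 (adjusted p = 0.0300) and 2 of 8 fibroblast markers were called higher. Among the lists, 1 of 13 matricellular, 2 of 10 TGF-beta, 2 of 25 biosynthesis and 1 of 9 elastic fibre genes were called higher. So were 1 of 11 other proteoglycans and 0 of 8 laminins and nidogens, and no gene of these lists was called lower. Over all probe sets, 2.10% were called higher and 0.939% lower. The number of luteal calls depended on the fit. With every animal, 663 probe sets were called higher and 297 lower. In either direction 3435 were called with the animal as a random block, 1801 with array weights and 813 with centred arrays. Without BB405 2336 were called and without BB4870 1131. Whether the genes named here were among them is not given. Other fits lost most or all calls. With the fibroblast marker mean or the GAPDH difference as a covariate 0 of 31624 probe sets were called, and with the smooth muscle mean 1 was. DPT is itself in the fibroblast mean, which was 7.60 in late follicular and 9.33 in late luteal samples. The loss with that covariate therefore cannot tell whether the calls are unstable. Without animal BB173 0 probe sets were called, without BB269 3 and without BB4800 4. None of these lists had a called gene at either LNG time, by limma over all samples.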

How the data were processed

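Deposited log2 values from 58 Affymetrix rhesus arrays were used as the authors gave them. The submitters' processing notes name affy and Partek, with no version or role, and how the values were normalized is not stated in what was used here. Values ran from 1.37 to 14.57 (log2). The 2 arrays of 1 late follicular baseline sample were averaged (SD of their differences 0.465), which left 57 samples. The array has 52865 probe sets. The 158 controls were dropped, and 31624 of the rest passed a filter at the 40th percentile of mean log2 (5.53). Gene names came from the array annotation (24969 probe sets with 1 symbol, 361 with several, 27535 with none), and RefSeq sequences or coordinates were not used here.

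Changes were fitted with limma 3.58.1 (statmod 1.5.0, R 4.3.3) on 2 models, each with the animal as a fixed block: treatment (57 samples, 38 residual degrees of freedom) and baseline phase (28 samples, 10). Doses and A- labels were pooled. The labels' replicate numbers do not pair samples. Animals are the pairs. The code was tested on simulated data. Alternatives covered the filter, probe sets, animal block, array weights, centring, GAPDH difference, baseline phases and each animal left out, and others were added after seeing the data (marker means, 4 samples left out). The members and lists were chosen with earlier results of these data known. Named genes were the up to 12 called members with the largest change in each direction of a comparison, or the 3 members with the smallest p where fewer than 3 were called. Levels and changes were also given for the 18 listed genes and named structural collagens, and up to 4 genes with the smallest p of each other list.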

Additional observations from a re-analysis of the deposited data

Results flagged for a closer look

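Within groups of 4 to 10 samples, 136 Dixon tests compared the gap between an extreme sample and its nearest neighbour with the range of the group. Chance marks about 1 in 20 groups, and genes of 1 biopsy are not independent. Most marked values came from 4 biopsies. In the late luteal biopsy of BB4870, the lowest of 9, the gap took 0.676 of the range for COL1A1, 0.718 for COL1A2, 0.509 for COL3A1, 0.554 for DCN, 0.516 for LUM, 0.534 for OGN, 0.557 for FMOD, 0.555 for FN1, 0.625 for FBN1, 0.545 for LOX and 0.570 for the mean of the 16 named genes. In the 5th biopsy of the same animal, labelled A-, the lowest of 6, it took 0.811 for COL1A1, 0.826 for COL1A2, 0.719 for COL12A1, 0.683 for LUM, 0.639 for OGN, 0.725 for ASPN, 0.860 for FMOD, 0.626 for VCAN, 0.781 for FN1 and 0.748 for the mean.

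The DMPA 1D4 biopsy of BB405 was the lowest of 8, by 0.763 of the range for COL1A1, 0.720 for COL1A2, 0.550 for COL3A1, 0.629 for DCN and 0.548 for FBN1. The late follicular biopsy of BB4800 was the highest of 5, by 0.736 for COL1A1, 0.854 for COL3A1, 0.922 for LUM, 0.812 for BGN and 0.850 for the mean.

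Single genes stood apart in other biopsies. TNC at 5.90 was the lowest of 5 late follicular samples (0.725), and FN1 at 6.63 was the lowest of 9 at DMPA 2D2 (0.540). ELN was highest at 8.10 among late luteal samples (0.498) and at 8.34 among 2D2 samples (0.577).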

How the results depend on the processing

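The number of members called depended on the settings. At DMPA 1D4 it was 13 in the reported fit, 21 with array weights, 7 with the 60th percentile filter, 2 with the fibroblast or the smooth muscle covariate, 3 with the GAPDH covariate, and 3 to 14 when 1 animal was left out. The calls over all 31624 probe sets moved too, with 11812 under array weights, 755 with the fibroblast, 986 with the smooth muscle and 1847 with the GAPDH covariate, and 5532 of 21083 under the 60th percentile filter. At DMPA 2D2 the number of members called was 6, against 2 with the 60th percentile filter (7255 of 21083 probe sets). With the fibroblast covariate it was 13 (9243 of 31624), with the GAPDH covariate 0 (0 of 31624), and 4 to 6 when 1 animal was left out. At LNG 5th it was 0, against 1 with a random block, 15 with array weights, 11 with baseline phases separate, 2 with the 60th percentile filter, 3 without the late luteal biopsy of PPi2, 20 without the A- biopsy of BB4870, and 0 to 15 when 1 animal was left out. Over all 31624 probe sets, the LNG 5th calls were 755 with a random block, 1708 with array weights and 1808 with phases separate. They were 1046 without the PPi2 biopsy, 4117 without the A- biopsy, and 748 of 21083 under the filter. At LNG 7th the number of members called was 0, against 4 with array weights (3572 of all probe sets) and 6 with phases separate (1950). Late luteal against early follicular gave 0, against 3 with a random block (2174) or all samples in the fit (4110). It gave 0 to 2 when 1 animal was left out. Luteal against follicular gave 1, against 3 with a random block (3435) and 2 with array weights (1801). It gave 0 with centred arrays, all samples in the fit, each of the 3 covariates, the mean of probe sets, no brightness filter, or without the late luteal biopsy of PPi2, and 0 to 4 when 1 animal was left out. The other comparisons with no call stayed at 0 under the alternatives run, apart from the arm difference.

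The animal is the replicate block here, since the labels name it for every sample. With no replicate block, 11 members were called at 1D4, 9 at 2D2, 8 in the arm difference (1 higher, 7 lower) and 0 for luteal against follicular. Over all 31624 probe sets, that setting called 2449 in the arm difference and 382 for luteal against follicular. COL18A1 at 1D4 turned to -0.0181 over the mean of its probe sets, and COL6A2 in luteal against follicular to -0.0040 with the fibroblast covariate. The cause was not tested.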
